A study of Homo sapiens with 6 samples.

Results

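The response of naive HEK293T-REx cells to RocA was read in 3 of the 6 ribosome profiling libraries of the series, 2 from naive cells given the solvent DMSO and 1 from naive cells given RocA. HEK293T-REx is an established human embryonic kidney line that carries the tetracycline repressor. The other 3 libraries, used here for the spread between replicates and for a comparison of 4 models, came from a line labelled aglaiacized (2 with DMSO, 1 with RocA), a word that the labels do not explain. All 6 libraries share the HEK293T-REx background, and no dose or time of treatment was used here. The naive libraries were chosen by their titles. Rows with the same counts in all 6 libraries were merged into transcript models, and models averaging at least 20 counts over the 3 naive libraries were kept, 30849 of 38503 with any naive count.

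Translation of most mRNAs begins when the cap-binding complex eIF4F, with its helicase eIF4A, opens the leader of the mRNA for the scanning ribosome. RocA (rocaglamide A, from Aglaia plants) is known to hold eIF4A on purine-rich leader sequences, which blocks scanning on some mRNAs much more than on others and makes the drug selective. A ribosome footprint is the RNA that a ribosome protects from nuclease, so footprints on a coding region count the ribosomes on it. Both the amount of an mRNA and its translation enter such a count, and they cannot be told apart here. The files pair their transcript identifiers with no gene names, so models are given by identifier or as groups, the identity of the line was not checked against marker genes, and no sequences are shown.

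Over all models, the DMSO libraries held 18459239 and 18731972 counts and the RocA library held 8219273, which is 0.442 times the DMSO mean. The kept models held 99.6% to 99.7% of these counts. The DMSO pair differed by more than counting noise (chi-square per degree of freedom 1.96) and counted as 2 samples. No label says that they are separate cultures, and the p-values measure a spread that may be technical. All levels are relative to the rest of the same library: CPM, counts scaled to a common library size after TMM factors, which centre the libraries on the assumption that most models do not change.

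RocA redistributed footprints across the naive transcriptome in both directions. Of 30849 tested models, 20642 (66.9%) changed, 10029 upward (32.5%) and 10613 downward (34.4%), by edgeR's quasi-likelihood test at a Benjamini-Hochberg adjusted p of 0.05. The counts of 25923 tested models lie within those of a nearby row of the file, so they may share reads. The calls may therefore not be as many separate responses. Among the 4926 other models, tested by themselves, 3721 (75.5%) changed. Falls reached further than rises: 2737 models fell and 915 rose by 4-fold or more, and 745 fell and 47 rose by 8-fold or more. When the change itself was tested against 2-fold (edgeR's glmTreat), 3728 models (12.1%) rose and 4198 (13.6%) fell by more than that. The fit gives the single RocA library the spread of the DMSO libraries, since its own was not measured. The centre of these calls rests on TMM: with total counts in place of TMM, every log2 ratio was shifted by -0.58, and 5740 models rose while 16538 fell.

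The size of the response stood far outside the spread between the DMSO libraries. Among 19066 models averaging at least 100 counts, the log2 ratio of RocA over DMSO had an SD of 1.25 against either DMSO library, and the ratio of the DMSO libraries to each other had an SD of 0.148. RocA was more than 2-fold above a given DMSO library in 20.8% (replicate 1) and 20.7% (replicate 2) of these models and more than 2-fold below it in 23.3% and 23.2%. No model of this set differed 2-fold between the DMSO libraries, and 99.6% lay within 0.5 of each other on the log2 scale. Over all tested models, the RocA CPM lay above both DMSO values in 45.1% and below both in 50.3%. These shares need no model of the spread but rest on TMM. A single library lies outside the range of 2 others in many models even without a response, the more so when it is shallower. In 1417 models (4.59%) even the raw RocA count was above both raw DMSO counts, although the RocA library was the shallowest.

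**Figure D1:**
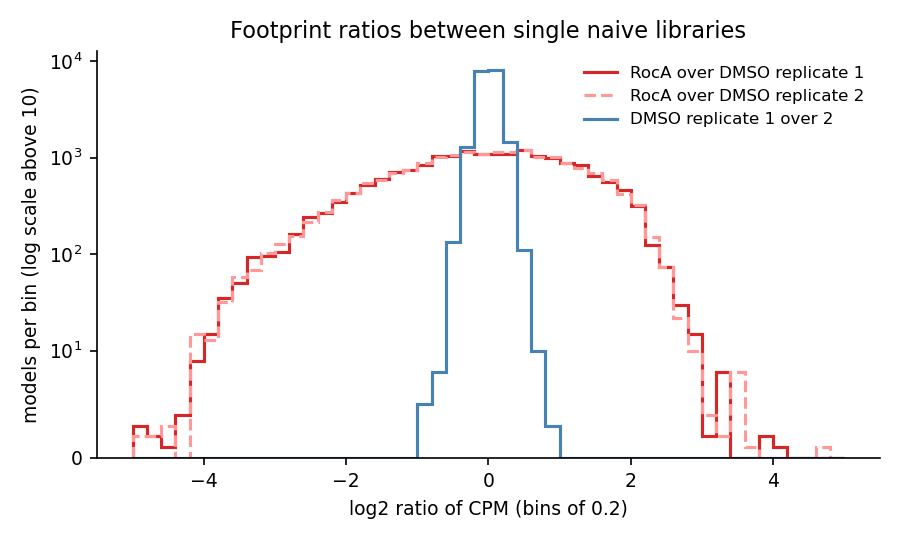
Number of models (vertical axis, log scale above 10) by log2 ratio of CPM between single naive libraries (horizontal axis), for models averaging at least 100 counts. Ratios past the ends of the axis are counted in the end bins. RocA over either DMSO library (SD 1.25) gives a broad distribution with a longer left side, and the DMSO replicates against each other (SD 0.148) a narrow one.

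Measured as a share of the library, a measure that no scaling factor touches, 30.1% of the footprints would have to move to other models to turn either DMSO library into the RocA library. Between the DMSO libraries that share was 2.90%. The models called as rises held 49.2% of the counts in each DMSO library and 78.0% in RocA, and the models called as falls held 34.0% in each DMSO library and 10.7% in RocA. These last shares describe models chosen by the same values and support nothing by themselves. Leaving out models whose counts lie within those of a nearby row of the file, which may be isoforms that share reads, gave 27.8% and 27.7% for the moved share and 2.43% between the DMSO libraries.

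The printed models show the size of the change at high depth. They are the largest rises and falls among 1425 rises and 922 falls with a mean count of at least 1000. Of the 2698 models this deep, 87.0% were called, so a call by itself sets few of them apart. By rule, the RocA CPM of each printed model had to lie outside both DMSO values, on the side of its change. Over all tested models it lay above both in 45.1% and below both in 50.3%. The naive responses of the printed models were chosen for their size, so these values are a description of the extremes. The model uc002mjn.3, with a listed coding length of 60, had 2186 and 2032 counts in DMSO and 4359 in RocA. This is 105 and 95.8 CPM in DMSO and 701 CPM in RocA. The fitted log2 change was 2.80 (SE 0.09, edgeR adjusted p = 2.43e-49).

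The model uc011dug.1, also short with a listed length of 65, had 1092 and 1141 counts in DMSO and 2208 in RocA. Its level went from 52.5 and 53.8 CPM to 355 CPM, a log2 change of 2.74 (SE 0.10, edgeR adjusted p = 8.3e-45). For both rising models the raw count rose although the RocA library held fewer counts in all.

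The model uc011liq.2, with a listed length of 565, had 1736 and 1671 counts in DMSO and 20 in RocA. Its level went from 83.5 and 78.8 CPM to 3.22 CPM, which is 25.2-fold lower than the DMSO mean. The log2 change was -4.65 (SE 0.22, edgeR adjusted p = 2.58e-36). The model uc009vky.3, with a listed length of 231, had 1852 and 1893 counts in DMSO and 30 in RocA. It went from 89.1 and 89.2 CPM to 4.83 CPM, 18.5-fold lower than the DMSO mean, with a log2 change of -4.21 (SE 0.20, edgeR adjusted p = 7.82e-36). Its counts lie within those of the next row of the file, a model of length 331 with 2545 and 2589 counts in DMSO and 42 in RocA, so both may rest on shared reads. The change of the longer model was -4.18 (SE 0.18, edgeR adjusted p = 3.84e-39).

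**Figure D2:**
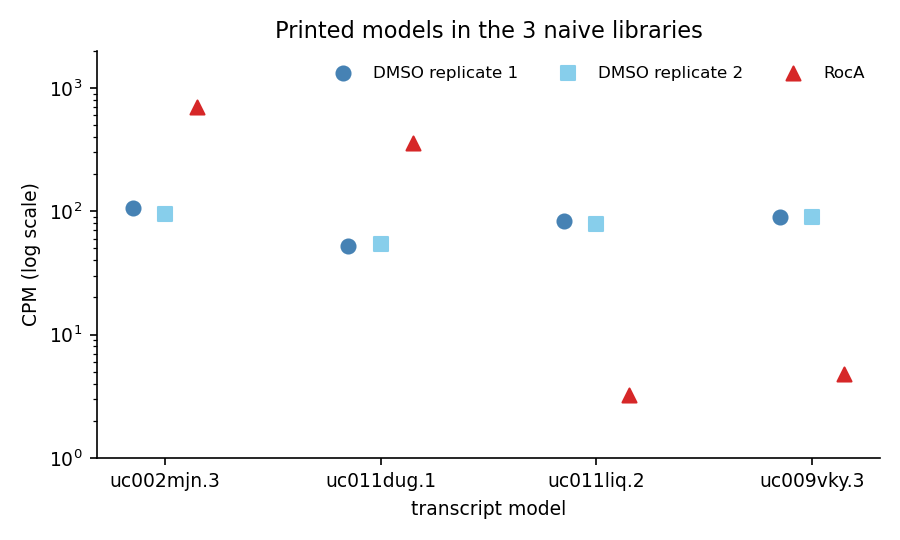
CPM (vertical axis, log scale) of the printed models in DMSO replicate 1 (circles), DMSO replicate 2 (squares) and RocA (triangles) of naive cells. In each model the DMSO libraries lie close together, and RocA lies above them in uc002mjn.3 and uc011dug.1 and below them in uc011liq.2 and uc009vky.3. The choice of the models requires that RocA lie outside both.

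These 4 models moved the same way in aglaiacized cells but by less. The fitted log2 changes there were 1.08 for uc002mjn.3, 1.21 for uc011dug.1, -2.38 for uc011liq.2 and -2.65 for uc009vky.3 (edgeR adjusted p at most 3.85e-18). The test of the difference between the lines passed for 4 of 4, where 26% of all tested models passed it. That share covers models of all depths, and the 4 models have a mean count of at least 1000. Since the models were picked by their naive change, a smaller change in the other line is partly built into the choice.

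Around these extremes, the 25 largest rises among models averaging at least 1000 counts ran from 2.38 to 2.80 on the log2 scale and the 25 largest falls from -3.31 to -4.65. The 25 rises had a median listed length of 127, and 17 of them were at most 200 units long. The 25 falls had a median length of 346, and 5 were at most 200. Over all tested models the median length was 428, so both sets were shorter than that. That median covers all depths, and the most abundant models were shorter too. By rank in DMSO replicate 1, the median length was 359 for ranks 1 to 100 and 343 for ranks 101 to 500. It was 401.5 for ranks 501 to 1000 and 442.5 for ranks 1001 to 5000. Of the 25 rises 11 and of the 25 falls 8 were not nested in a larger neighbour, and the nested ones may share reads. In the RocA library the 25 falls held 20 to 295 counts and the 25 rises 1400 to 53380.

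Some models had no RocA footprint at all. The RocA count was 0 in 76 of 30849 tested models, all 76 of them called as falls. Passing the filter without a RocA count takes a high DMSO count, with a lowest mean of 30 here. A call as a fall was therefore largely built into the filter. The DMSO means of the 76 ran from 1.43 to 5.46 CPM. Setting the RocA library at a floor of 3 counts (0.483 CPM), these were at least 2.95-fold to at least 11.3-fold lower under RocA, with a median bound of 3.83-fold. A further 790 tested models had 1 to 3 RocA counts. No tested model was at 0 in either DMSO library, both of which were deeper than the RocA library. The filter on the mean over 3 libraries left out 1144 models with a mean DMSO count of at least 20. Their median log2 ratio was -0.56, and 351 of them lay above 0. The 249 models with a mean count from 20 to under 21 had log2 ratios from -3.98 to 5.18 (median -0.15), and the 263 models from 19 to under 20, left out, had ratios from -3.91 to 3.18 (median -0.10).

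Footprints were more concentrated under RocA. The 10 most abundant models of each library held 2.51% and 2.47% of counts in DMSO and 5.02% in RocA, and the 1000 most abundant held 43.0% and 42.8% in DMSO and 55.5% in RocA. For the 100 most abundant the RocA share was 8.46 percentage points above the DMSO mean, where the DMSO shares differed from each other by an SD of 0.136. To cover 90 in 100 footprints took 13443 and 13501 models in DMSO and 9268 in RocA. With 1 RocA library, no p is given for these shares.

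The most abundant model of the RocA library, with a listed length of 127, took 0.189% and 0.178% of DMSO counts and 0.649% of RocA counts. Its log2 change was 2.40 (SE 0.08, edgeR adjusted p = 5.98e-50). The most abundant model of both DMSO libraries, with a length of 453, took 0.338% and 0.350% of DMSO counts and 0.574% of RocA counts. It rose too, with a log2 change of 1.32 (SE 0.07, edgeR adjusted p = 3.32e-31).

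**Figure D3:**
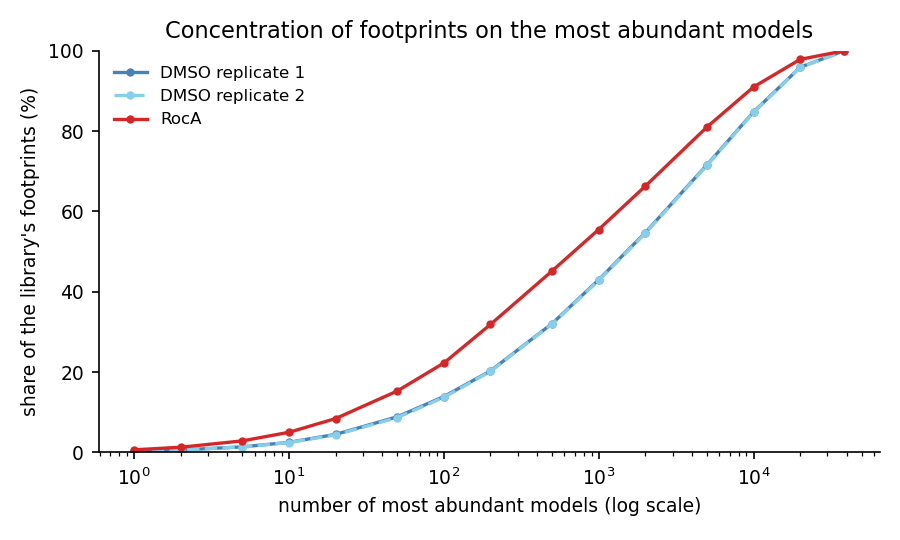
Cumulative share of a library's footprints (vertical axis, percent) held by its most abundant models (horizontal axis, log scale) in the 3 naive libraries. The DMSO curves coincide, and the RocA curve lies above them: 100 models hold 22.3% of footprints under RocA and 13.9% and 13.7% in DMSO.

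The leading set also turned over. The DMSO libraries had 96 of their 100 most abundant models in common, and 62 of these 96 were among the 100 of RocA. The 36 models that entered the leading 100 of RocA from outside both DMSO sets had a median length of 252.5. Their median log2 change was 1.99, a rise that the choice of these models fixes. The 34 models that were in both DMSO sets and not in that of RocA had a median length of 332. Of these 34, chosen by their loss of rank, 18 were called as rises and 11 as falls, with a median log2 change of 0.32. The lowest RocA rank among them was 773. Deep models in general were called often too. Of 2698 averaging 1000 counts or more, 1425 were called as rises and 922 as falls.

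Ranking models in 1 DMSO library and taking the ratio over the other, so that the control's counting noise does not enter both, the top of the DMSO ranking tended to gain. Of the 100 highest in DMSO replicate 1, 77 rose and 13 fell, with a median log2 ratio of 0.75 over replicate 2. Of the 100 highest in replicate 2, 79 rose and 12 fell, with a median of 0.80 over replicate 1. The same share over all tested models is 32.5% rises and 34.4% falls. That share covers all depths, and deeper models are called more often. Of 2698 models that averaged 1000 or more counts, 1425 rose and 922 fell. Both medians stayed above 0 with total counts (0.17 and 0.23). Of the 42 models in either ranking that were not nested in a larger neighbour, 33 rose and 6 fell. Ranks 101 to 500 had medians of 0.53 and 0.55, ranks 501 to 1000 medians of 0.14 and 0.07, ranks 1001 to 5000 medians of 0.02 and 0.003, and all lower ranks a median of -0.13 in both.

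A count grows with the length of a coding region as well as with how densely ribosomes sit on it, so models were also grouped by density, the DMSO CPM per 1000 units of listed length. In the densest of 10 groups, 50.5% of models rose and 33.9% fell, and in the second sparsest 21.6% rose and 32.6% fell. The median log2 ratio ran from -0.29 in the second sparsest group to 0.28 in the densest, with densities from DMSO replicate 1 and ratios over replicate 2. With the replicates exchanged it ran from -0.28 to 0.26. The sparsest group, at -0.14 and -0.16, is the one closest to the filter, and it had the fewest calls, with 21.4% rises and 23.3% falls. The densest models were also the shorter ones, with a median length of 226 against 566 in the second sparsest group. Deeper models are called more often, and depth was not held fixed in these groups.

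**Figure D4:**
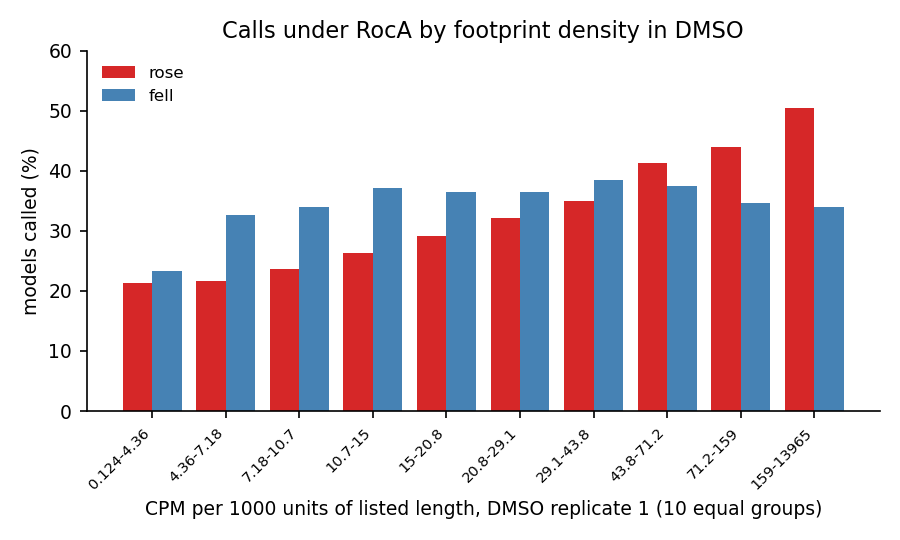
Share of models called as rises (red) and falls (blue) under RocA, in percent, in 10 equal groups of footprint density in DMSO replicate 1 (CPM per 1000 units of listed length). Rises go from 21.4% in the sparsest to 50.5% in the densest group, and falls lie between 23.3% and 38.4%.

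Grouped by CPM alone, without length, the least abundant group had a median ratio of 0.14 and the most abundant of 0.14, with medians down to -0.22 between them (grouped on replicate 1, ratio over replicate 2). The value of the least abundant group moved with the filter. When models were kept by a mean DMSO count of at least 20 instead, the difference, least minus most abundant, was -0.21, and -0.16 in the exchanged grouping.

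The response also went down with listed coding length. The median log2 ratio over the DMSO mean went down from 0.42 in the shortest of 10 groups (16 to 154 units) through 0.10 in the third (219 to 285) and -0.15 in the seventh (514 to 619) to -0.45 in the longest (1067 to 14498). The difference between the ends was 0.87, or 0.88 against each DMSO library alone, and -0.02 between the DMSO libraries. In the shortest group 1476 models (47.7%) rose and 654 (21.1%) fell, and in the longest 699 (22.7%) rose and 1444 (46.9%) fell. By the 2-fold test the numbers were 744 up and 229 down in the shortest and 210 up and 627 down in the longest. The signs of the medians depend on scaling, since with total counts they were -0.16 and -1.02, and the difference of 0.87 does not.

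**Figure D5:**
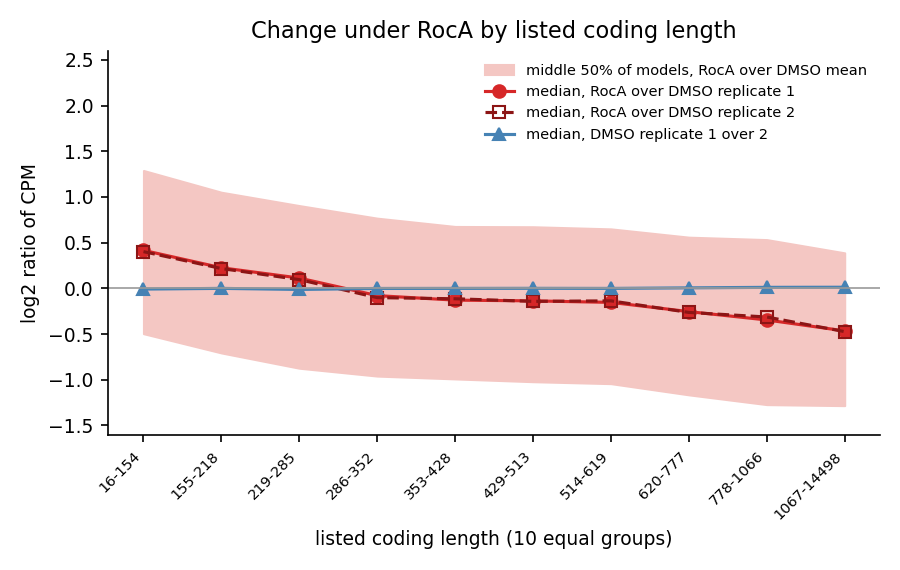
Median log2 ratio of CPM (vertical axis) in 10 equal groups of listed coding length (horizontal axis) for RocA over DMSO replicate 1 (circles), RocA over DMSO replicate 2 (squares) and DMSO replicate 1 over 2 (triangles), with the middle 50% of models shaded. The RocA medians go from about 0.4 to below -0.4, the DMSO medians stay near 0, and the shaded range in every group is wider than the trend.

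Models of any length could go either way. Differences between the 10 group means made up 3.29% of the variance of the log2 ratio, and the SD within groups ran from 1.22 to 1.32. Of 881 tested models of at most 100 units, 453 rose and 166 fell (median 0.53). Of 544 models of at least 2000 units, 145 rose and 259 fell (median -0.36). Over all tested models 32.5% rose and 34.4% fell. Density groups made up 1.63% of the variance.

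The same shift showed in the shares of the library. Models of at most 200 units held 20.2% of counts in each DMSO library and 27.6% in RocA (95% Wilson interval 27.62% to 27.68%, which covers counting error only). Models of over 1000 units held 10.4% and 10.3% in DMSO and 7.37% in RocA (7.35% to 7.39%). The length at which the summed footprints, ordered by length, reached their midpoint was 407 in both DMSO libraries and 365 in RocA. Without nested rows it was 385 and 384 in DMSO and 341 in RocA.

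Since dense models were also short, length and density were each read within groups of the other. With length in 5 groups, short models lay above long ones in each of 5 groups of density, by 1.29, 0.75, 0.58, 0.59 and 0.44 from the sparsest to the densest (densities from DMSO replicate 1) and by 1.67, 0.86, 0.61, 0.54 and 0.51 with the replicates exchanged. In the sparsest group the short models are few, 134 by replicate 1, and close to the filter. Density within length was less even. In the shortest group the medians from the sparsest to the densest models were 0.91, 0.22, 0.22, 0.27 and 0.38, with the sparsest highest, and in the longest they were -0.38, -0.53, -0.36, -0.32 and -0.06 (densities from replicate 1). In the second shortest group (219 to 352 units) the sparsest models also lay above the densest. The medians were 0.23 (615 models) against 0.14, and 0.29 (631 models) against 0.15 with the replicates exchanged. In the longer groups the densest lay above the sparsest. The densest models lay above the second sparsest in each of the 5 length groups, in both groupings. Within 5 groups of CPM the differences were 0.49, 0.65, 0.89, 0.67 and 0.70, and 0.50, 0.74, 0.88, 0.71 and 0.76 with the replicates exchanged.

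Depth set how small a change could be called. In the lowest of 10 groups by mean count (20 to 34 counts) 39.6% of models were called, the median SE was 0.53 and the smallest called log2 change was 0.88. In the highest group (891 counts and more) 86.9% were called, the median SE was 0.11 and the smallest called change was 0.18. No smaller change was called in either group. At the depth of the RocA library, 8219273 counts, each DMSO library would be expected to show 37554 models with a footprint, and RocA showed 36953. With at least 10 counts at that depth the numbers were 31308 and 31377 in DMSO and 27845 in RocA.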

How the data were processed

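The authors deposited 1 table per library with raw counts per transcript row and a whole-number length, listed for 63691 of 82960 rows and taken here as coding length; its unit is not stated. Build hg19, CASAVA 1.8, Bowtie2 2.1.0 and TopHat2 2.0.9 are named in the submitters' processing notes; the counting program is not given in the sources used here. The 19269 rows with no length held 0 counts. The other rows with a count (50582) were merged into 38543 models with distinct counts over 6 libraries, keeping the first identifier and longest length.

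Differences come from 1 fit with 4 groups over the 6 libraries in edgeR 4.0.16 (R 4.3.3, TMM, quasi-likelihood, 2 residual degrees of freedom, glmTreat for 2-fold). The fit was tried on simulated counts in which few models changed, as many up as down. That simulation cannot check the TMM centre where most models are called. SE is the log2 change over the root of F. Single-library ratios are log2(CPM + 0.1). Nested rows have no count above, and at least 1 count over 50% of, that of a row within 20 rows. Printed models are the 2 largest called rises and falls with a mean count of at least 1000, over 100 rows apart. Their RocA CPM had to lie outside both DMSO values on the side of the change. Members, groups and rules were chosen with earlier results of these data known. Alternatives used DESeq2 1.42.0, other scalings, filters, pseudocounts, library sets and thinning.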

Additional observations from a re-analysis of the deposited data

Results flagged for a closer look

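The response of the 4 printed models differed between the lines by edgeR's test of the difference itself. The log2 difference, aglaiacized minus naive, was -1.72 for uc002mjn.3 (edgeR adjusted p = 1.87e-18) and -1.54 for uc011dug.1 (edgeR adjusted p = 6.66e-14), both a smaller rise in aglaiacized cells. It was 2.28 for uc011liq.2 (edgeR adjusted p = 4.56e-08) and 1.55 for uc009vky.3 (edgeR adjusted p = 2.54e-05), both a smaller fall in aglaiacized cells. Each line has 1 RocA library, so a difference between the lines and a difference between those libraries cannot be told apart. The models were picked by their naive change, which enters this difference, so a smaller change in aglaiacized cells is partly built into the choice.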

How the results depend on the processing

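Over the alternatives of 4 printed models, 47 of 47 kept direction and call. These models were chosen as extremes, so the tally says little about other models. Leaving out each DMSO library of either line gave 18681 to 21505 called models and 6952 to 8346 changed by over 2-fold. Without nested rows, which left 4926 models to test, the numbers were 3721 (75.5%) and 1399 (28.4%). With total counts 25.8% of calls were rises in place of 48.6%, and 13.5% of those over 2-fold in place of 47%. DESeq2 called 15392 (49.9%, against 66.9% in the main fit), with 8502 rises (55.2%) and 6890 falls.

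The SD of the ratios, 1.25, was 1.24 without nested rows, 1.27 from a mean count of 20, 1.15 with a pseudocount of 1 CPM and 1.24 after thinning. The length difference, 0.87, was 0.88 against either DMSO library, 0.92 without nested rows, 1.02 from a mean count of 100, 0.75 with a pseudocount of 1 CPM, 0.71 with 5 groups and 0.83 from a mean DMSO count of 20. Averaged over both groupings it was 0.49, 0.69, 0.89, 0.69 and 0.73 within CPM groups and 1.48, 0.80, 0.60, 0.57 and 0.48 within density groups. The abundance difference, least minus most abundant, was 0.01 and changed sign without nested rows (-0.33), with a pseudocount of 1 CPM (-0.035), with 5 groups (-0.070), by density (-0.42) and from a mean DMSO count of 20 (-0.19); from a mean count of 100 it was 0.26. It needs both DMSO libraries, so neither was left out. The gain of the top 100 was 11.3 points without nested rows. The loss of models with a footprint, -601, was -168 without nested rows and -3498 with 10 counts. The causes were not tested. Density groups and the filter on DMSO counts were chosen after seeing the data.

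No paired analysis was possible because the RocA libraries carry no replicate number. Reads shared between isoforms, unknown counting rules and the single RocA library limit all values.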
